A study of Mus musculus with 3 samples.

Results

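The genes described here are 45 members of the DNA replication machinery, found by symbol among the 33696 genes of the deposited count table. They fall into 7 groups by role. The MCM helicase and its activators hold 12 genes (Mcm2 to Mcm7, Mcm10, Cdc45 and Gins1 to Gins4). Origin recognition and licensing hold 5 (Orc1, Orc6, Cdc6, Cdt1 and Gmnn), and the sliding clamp with its loader 6 (Pcna and Rfc1 to Rfc5). The polymerases and primase hold 9 (Pola1, Pola2, Prim1, Prim2, Pold1, Pold2, Pold3, Pole and Pole2). Single-strand binding and lagging-strand joining hold 5 (Rpa1, Rpa2, Rpa3, Fen1 and Lig1), deoxynucleotide supply 4 (Rrm1, Rrm2, Tyms and Tk1), and the chromatin and checkpoint genes of the fork 4 (Chaf1a, Chaf1b, Uhrf1 and Clspn). All 45 were found, and all were measured in cycling endothelial cells.

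Before a cell copies its DNA, the origin recognition complex, Cdc6 and Cdt1 load the MCM ring onto origins, and Gmnn (geminin) blocks reloading once replication has begun. Cdc45 and the GINS complex then turn the ring into the working helicase, primase and polymerase alpha start each strand, and polymerases delta and epsilon extend it, held on by the ring of Pcna that the Rfc complex loads. Many of these genes are transcribed late in G1 and in S phase under E2F factors, whereas genes of mitosis peak later, and in the first postnatal week the growing retinal vasculature holds dividing endothelial cells beside dividing microglia and retinal progenitors.

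Single-cell RNA-seq was performed on retinal vascular cells of mice at postnatal day 6, with 1 library for each of 3 genotypes. These were wild type (WT), Tspan12 knockout (Tspan12 KO), which lack a co-receptor of Norrin/β-catenin signalling, and Ctnnb1 conditional knockout (Ctnnb1 cKO; Ctnnb1 flox/flox; Pdgfb-iCreER), in which tamoxifen given in the first days of life deletes β-catenin in endothelial cells. The background was C57BL/6 throughout, each library pooled retinas of several mice, WT animals came from other litters than the mutants, and the cells were enriched with beads against CD31 and CD11b, the surface proteins of endothelial cells and of microglia. With 1 library per genotype no difference between genotypes can be tested, and genotype cannot be told apart from library, litter or depth.

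The promoter sequences of 7 members are shown first, because letters known as E2F words occur in several of them and not in others. The RefSeq table (build GRCm38.p6) holds windows from 250 bases before to 50 bases after the start of 37 of the 45 members, 43 windows in all. It holds none for Mcm4, Gins1, Gins2, Gins4, Gmnn, Rfc2, Prim2 or Pole. Each sequence below is the 160 bases before a start site, 5′ to 3′ on the strand of the gene. Capitals mark an E2F word (TTTCCCGC, TTTGGCGC or TTTCGCGC) or the CCAAT box (CCAAT), each searched on both strands, so that the reverse forms GCGGGAAA, GCGCCAAA, GCGCGAAA and ATTGG are also in capitals. E2F words on opposite strands can overlap, as in Mcm5 and Mcm6. The members shown are a helicase subunit with 2 overlapping words (Mcm5, chr8:75109349-75109508, plus strand), 1 with 3 words (Mcm6, chr1:128359706-128359865, minus strand), the loading factor Cdc6 (chr11:98907991-98908150, plus strand) and the polymerase alpha catalytic subunit Pola1 (chrX:93632156-93632315, minus strand), each with 1 word, and then 3 members with no E2F word in these bases, the clamp Pcna (chr2:132253181-132253340, minus strand), the reductase subunit Rrm2 (chr12:24708094-24708253, plus strand) and the large clamp loader subunit Rfc1 (chr5:65335640-65335799, minus strand).
Mcm5: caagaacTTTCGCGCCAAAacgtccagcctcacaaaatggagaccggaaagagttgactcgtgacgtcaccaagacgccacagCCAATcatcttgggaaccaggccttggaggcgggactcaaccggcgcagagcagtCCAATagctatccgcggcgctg
Mcm6: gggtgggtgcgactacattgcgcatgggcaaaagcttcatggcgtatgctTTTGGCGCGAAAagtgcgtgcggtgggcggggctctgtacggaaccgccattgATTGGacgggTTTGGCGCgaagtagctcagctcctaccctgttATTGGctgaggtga
Cdc6: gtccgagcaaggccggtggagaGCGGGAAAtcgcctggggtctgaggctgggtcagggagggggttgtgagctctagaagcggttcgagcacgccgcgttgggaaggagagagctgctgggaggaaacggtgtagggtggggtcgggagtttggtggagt
Pola1: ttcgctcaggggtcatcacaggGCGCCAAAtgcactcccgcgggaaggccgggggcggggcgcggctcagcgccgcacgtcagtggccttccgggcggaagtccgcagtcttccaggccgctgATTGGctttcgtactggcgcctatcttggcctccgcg
Pcna: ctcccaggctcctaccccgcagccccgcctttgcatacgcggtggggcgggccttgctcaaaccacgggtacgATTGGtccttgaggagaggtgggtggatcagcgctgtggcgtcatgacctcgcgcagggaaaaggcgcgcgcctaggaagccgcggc
Rrm2: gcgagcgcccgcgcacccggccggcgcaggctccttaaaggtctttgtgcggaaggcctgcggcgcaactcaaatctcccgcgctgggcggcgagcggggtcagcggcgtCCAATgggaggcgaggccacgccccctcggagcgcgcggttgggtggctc
Rfc1: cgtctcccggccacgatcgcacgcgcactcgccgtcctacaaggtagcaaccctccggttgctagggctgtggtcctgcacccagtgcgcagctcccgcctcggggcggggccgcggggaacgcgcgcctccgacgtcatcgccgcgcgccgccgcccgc

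In the 300-base windows an E2F word was found in 16 of the 43 member windows (37.2%), against 606 of all 32851 windows in the table (1.84%). The CCAAT letters were found in 26 of the 43 (60.5%), against 37.4% of all windows. The word TTTGAA (the CHR element of genes of late cell cycle, also searched on both strands), was found in 5 of the 43 (11.6%), against 17.9% of all windows. By role, an E2F word was present for 5 of the 8 MCM helicase genes with a window, 3 of 4 licensing genes, 4 of 7 polymerase and primase genes, 2 of 4 chromatin and checkpoint genes, 1 of 5 clamp genes, 1 of 5 lagging-strand genes and 0 of 4 deoxynucleotide genes. These are letter matches. A match is a description of the window and not a binding site, and the absence of one says only that these letters are not there.

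The 3 libraries held 9951 (WT), 14426 (Tspan12 KO) and 9151 (Ctnnb1 cKO) barcodes with 92684519, 137114957 and 37008362 unique molecular identifiers (UMIs, 1 per captured RNA molecule), and 8989, 12732 and 8451 cells were kept. Endothelial cells (ECs; 538 WT, 288 Tspan12 KO and 2710 Ctnnb1 cKO cells) formed 4 clusters in which 8 of 8 endothelial markers were raised, and microglia-like cells (282, 369 and 2128) likewise had 8 of 8 microglia markers. The Ctnnb1 cKO cells were shallower, with a median of 3362 UMIs per EC against 15872 in WT and 15008 in Tspan12 KO. They also stood apart in the clustering, since of the Ctnnb1 cKO ECs only 64 shared the cluster that held 507 of the 538 WT ECs. Of the 2128 Ctnnb1 cKO microglia-like cells 2037 lay in a cluster with 11 of the 282 WT and 26 of the 369 Tspan12 KO ones. Its leading genes include Ccl4, Ccl3 and Il1b. In ECs the targeted genes did not follow both labels: Tspan12 was at 95.7 counts per 1000000 UMIs (CPM) in WT, 85.4 in the library labelled Tspan12 KO and 40.2 in Ctnnb1 cKO, and Ctnnb1 was at 524, 612 and 445 CPM. Reads of a 3′ method may come from outside a deleted part, and the position of the deleted exons is not given in the sources used here. Neither label could thus be checked from these counts, and both knockout libraries are called by their labels throughout. Of 2 genes known to follow endothelial β-catenin signalling, Plvap, which rises when the signal is lost, was at 112, 344 and 296 CPM in the ECs of the 3 libraries, and Apcdd1, which falls, was at 156, 203 and 97.9 CPM. Plvap was thus higher in both knockout libraries, and Apcdd1 was higher in the library labelled Tspan12 KO and lower in Ctnnb1 cKO.

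Cells were called cycling from 24 other cell-cycle genes, none of them among the 45, after each cell was thinned to 2000 UMIs. Cells with fewer UMIs were not called and are left out of the states and shares. Among the ECs given above this left out 18, 27 and 823 cells in the 3 libraries, so that 520, 261 and 1887 were called. A cell with at least 3 UMIs of 12 G2/M genes (such as Mki67, Top2a and Cdk1) was called G2/M, and a cell below that with at least 2 UMIs of 12 S-phase genes (such as E2f1, Hells and Dtl) was called S. Cycling ECs made up 33.7% in WT (exact 95% interval 29.6 to 37.9), 28.4% in the library labelled Tspan12 KO (23.0 to 34.2) and 22.7% in Ctnnb1 cKO (20.8 to 24.6). Without thinning, and with the shallower cells included, the shares were 68.4%, 58.3% and 29.4%. Microglia-like cells were cycling in 10.6%, 13.4% and 17.9% (26.6%, 22.8% and 21.6% unthinned), and rods, which have left the cell cycle, in 1.15%, 2.12% and 5.26% (13.8%, 8.79% and 18.6% unthinned). The thinned Ctnnb1 cKO rod share was 2 of 38 cells (interval 0.64 to 17.7). A progenitor-like cluster (267, 149 and 78 cells, 6 of 8 progenitor markers, led by cell-cycle genes) was cycling in 99.6%, 97.8% and 97.8% of its 253, 138 and 46 cells of at least 2000 UMIs. Of these only 1, 3 and 1 were non-cycling. Top2a, a G2/M-calling gene, was among the leading genes of this cluster, so its share is not a measure of progenitors as a class. With a marker gate in place of clusters the share was far lower (values below). The cycling cells of this cluster were set against the non-cycling Müller-like cells of the same library (779, 666 and 120 cells). The Müller-like class takes in a cluster of 142, 147 and 371 cells, before calling, with Ccnd1 and E2f1 among its leading genes. E2f1 is also an S-calling gene, and whether this reference holds progenitors was not tested. All intervals given here cover counting error only and not the difference between animals.

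The whole set was low but not at 0 in non-cycling cells. The 45 members summed to 758 CPM in non-cycling rods of WT, 727 in Tspan12 KO, with 750 in Ctnnb1 cKO. The part of free RNA in this level was not tested. All Ctnnb1 cKO rod values of this paragraph rest on 36 cells, against 1029 in WT and 1247 in Tspan12 KO. Non-cycling microglia-like cells lay next to the rods at 662, 695 and 752 CPM, while non-cycling ECs were at 1310, 1077 and 808 CPM and non-cycling Müller-like cells at 1015, 786 and 700. A thinned non-cycling cell held a median of 1 UMI of the whole set in each of these classes, and none was held by 21.4% (WT), 28.3% (Tspan12 KO) and 30.6% (Ctnnb1 cKO) of non-cycling ECs, against 23.8%, 23.3% and 22.2% of rods. Across the 45 members the level in non-cycling microglia-like cells followed that in rods (Spearman's rho 0.83, 0.80 and 0.58 in the 3 libraries), and that in non-cycling ECs followed it with rho 0.66, 0.72 and 0.49. Genes are not independent replicates, and these levels share a library. In rods of both the WT and the Tspan12 KO library 13 members stood at 20 CPM or more and 15 below 5 CPM.

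In cycling ECs and microglia-like cells the set was higher than in the non-cycling cells of the same class and library. Its sum was 2496, 2398 and 2245 CPM in cycling ECs (WT, Tspan12 KO and Ctnnb1 cKO) and 2754, 2811 and 2536 in cycling microglia-like cells. In cycling progenitor-like cells, a class with too few non-cycling cells for such a comparison, it was 3951, 3890 and 2662 CPM.

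**Figure D1:**
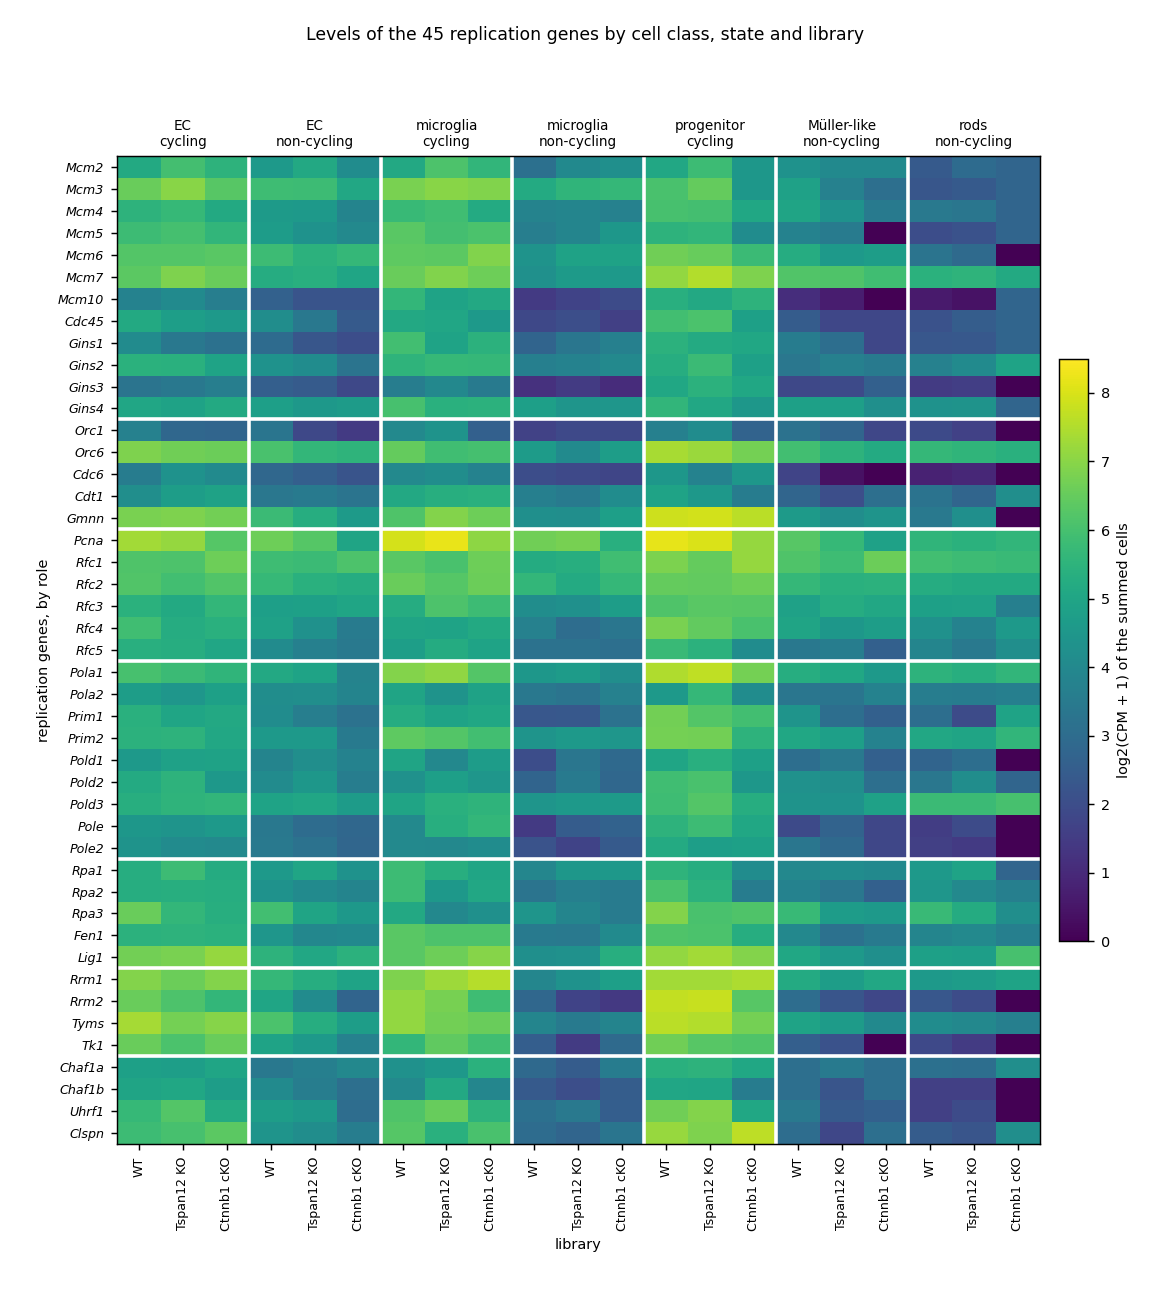
Level of each of the 45 replication genes (rows, grouped by role) as log2 of CPM + 1 in cycling and non-cycling ECs and microglia-like cells, cycling progenitor-like cells, and non-cycling Müller-like cells and rods, with 1 column per library and a colour scale from dark (0) to yellow (high). Cycling columns are lighter than non-cycling ones for most rows, and the summed levels in cycling ECs, 2496, 2398 and 2245 CPM, compare with 1310, 1077 and 808 in non-cycling ECs.

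In endothelial cells, 17 of the 45 members were at least 2-fold higher in cycling than in non-cycling cells of the WT library (1 CPM added to both levels), where 2.25% of all tested genes were. In the library labelled Tspan12 KO 26 of 45 were, against 2.94% of all genes, and in Ctnnb1 cKO 35 of 45, against 3.64%. No member was 2-fold lower, and the shares of all genes that were are not given here. The median log2 ratio of the members was 0.92, 1.12 and 1.46, against -0.04, -0.08 and -0.04 over all genes. The counting interval of the ratio lay above 0 for 44, 42 and 45 members, and the share of all genes with such an interval is not given here. These counts moved with the settings. The WT count was 11 with 5 CPM added and 36 when non-cycling cells with any UMI of the 24 calling genes were left out. The Tspan12 KO count was 9 with cells thinned to 1000 UMIs. Non-cycling ECs kept unequal amounts of G2/M calling RNA, 631 CPM in WT, 391 in Tspan12 KO, with 231 in Ctnnb1 cKO, in the same order as the members, and its part in the differing ratios was not tested.

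The deoxynucleotide genes had the highest summed log2 ratio of the 7 roles in WT and Ctnnb1 cKO ECs, and the chromatin and checkpoint genes in Tspan12 KO ECs. Rrm2, the regulated subunit of ribonucleotide reductase, was at 93.8 CPM in cycling and 30.9 in non-cycling WT ECs, at 68.4 and 16.3 in Tspan12 KO, and at 48.4 and 5.68 in Ctnnb1 cKO, a log2 ratio of 1.60 (95% counting interval 1.40 to 1.81), 2.07 (1.65 to 2.51) and 3.09 (2.62 to 3.58). Tk1, the thymidine kinase of the salvage pathway, was at 92.7 and 29.7 CPM, 68.0 and 22.5, and 94.2 and 12.4 (log2 ratio 1.64, 1.60 and 2.93). Tyms, which makes thymidylate, was at 161 and 68.0 CPM, 104 and 38.2, and 122 and 25.6 (1.24, 1.45 and 2.25). Rrm1, the large reductase subunit, was at 119 and 49.6, 96.3 and 38.0, and 121 and 29.4 CPM (1.26, 1.34 and 2.04). All 4 genes of this role were past 2-fold in all 3 libraries, and their summed level had a log2 ratio of 1.39, 1.55 and 2.40.

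The chromatin and checkpoint genes had summed log2 ratios of 1.21, 1.67 and 2.10. Clspn (claspin), an adaptor of the fork checkpoint, stood at 56.1 CPM in cycling and 20.3 in non-cycling WT ECs, 63.8 and 16.8 in Tspan12 KO, and 81.2 and 11.2 in Ctnnb1 cKO (log2 ratio 1.47, 1.93 and 2.85). Uhrf1, which brings the maintenance methyltransferase to new DNA, stood at 51.2 and 25.7, 73.0 and 21.9, and 35.7 and 7.30 CPM (1.0, 1.73 and 2.29). Chaf1a, the large subunit of the histone chaperone CAF-1, was past 2-fold in each library (1.51, 1.18 and 1.08), and its partner Chaf1b was at 0.95, 1.53 and 1.77.

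Of the licensing genes, 0, 4 and 5 of 5 were past 2-fold in the WT, Tspan12 KO and Ctnnb1 cKO libraries. Gmnn, the inhibitor of reloading, was at 109 and 54.8 CPM in cycling and non-cycling WT ECs, 114 and 38.0 in Tspan12 KO, with 102 and 24 in Ctnnb1 cKO. Its cycling level was nearly the same in the 3 libraries and its non-cycling level was not, giving log2 ratios of 1.0, 1.59 and 2.09. Orc6, the smallest subunit of the origin recognition complex, was at 115 and 65.3, 101 and 48.5, and 94.9 and 45.2 CPM (0.82, 1.05 and 1.07). Cdc6, which helps to load the ring, was at 10.8 and 6.21, 19.1 and 4.91, and 15.8 and 3.59 CPM (0.80, 1.96 and 2.14), and Cdt1 had ratios of 0.90, 1.31 and 1.71. Orc1, the largest subunit, was carried by only 78, 16 and 19 UMIs in cycling ECs, at 12.4, 6.12 and 5.89 CPM.

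The helicase genes were mixed. Mcm7 stood at 81.6 CPM in cycling and 37.4 in non-cycling WT ECs, 115 and 39.8 in Tspan12 KO, and 94.2 and 31.3 in Ctnnb1 cKO (1.13, 1.53 and 1.59). Mcm3 stood at 93.5 and 57.1, 125 and 55.2, and 76.6 and 32.9 CPM (0.71, 1.18 and 1.22). Mcm6 of the same ring, whose promoter holds 3 E2F words, was past 2-fold in no EC library (0.38, 0.81 and 0.68), nor was the GINS subunit Gins4 (0.27, 0.40 and 0.52), whose interval reached below 0 in WT (-0.01 to 0.54) and Tspan12 KO (-0.06 to 0.87). Of the other GINS genes, Gins1 and Gins2 were past 2-fold in all 3 libraries, as were Mcm5, Mcm7 and the initiation factor Mcm10, and Gins3 had ratios of 0.81, 1.12 (short of 2-fold once 1 CPM was added) and 2.17. Mcm10 was carried by 80, 41 and 37 UMIs in cycling ECs (12.7 CPM against 5.30, 15.7 against 3.61 and 11.5 against 3.59). Cdc45, which joins the ring to GINS, had a ratio of 1.04 in WT and 2.44 in Ctnnb1 cKO, where its non-cycling level was 4.29 CPM against 16.9 in WT.

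The clamp group had the lowest summed log2 ratios of the 7 roles in WT, Tspan12 KO and Ctnnb1 cKO ECs, 0.68, 0.73 and 0.97. Pcna was at 160 CPM in cycling and 98.5 in non-cycling WT ECs, 142 and 76.4 in Tspan12 KO, and 76.0 and 30.4 in Ctnnb1 cKO (0.70, 0.89 and 1.32). Rfc1 differed little between states, at 70.1 and 56.7, 69.2 and 54.5, and 98.6 and 68.5 CPM (0.31, 0.34 and 0.53). The small loader subunit Rfc5 was, by contrast, past 2-fold in each library (1.32, 1.64 and 1.69), Rfc4 was at 1.04, 0.99 and 1.93, and Rfc2 and Rfc3 stayed below 2-fold in all 3.

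Among polymerases and primase, Pola1 was at 64.9 and 34.4 CPM in cycling and non-cycling WT ECs, 53.9 and 29.4 in Tspan12 KO, and 45.9 and 12.9 in Ctnnb1 cKO (0.91, 0.87 and 1.83). The large primase subunit Prim2 was at 42.9 and 22.7, 44.0 and 23.5, and 32.9 and 10.3 CPM (0.92, 0.90 and 1.67). Prim1, the catalytic primase subunit (1.33, 1.43 and 2.08), and Pole, the catalytic subunit of polymerase epsilon (1.18, 1.51 and 1.92), were past 2-fold in all 3 libraries. Pold3 (0.40, 0.49 and 0.97), an accessory subunit of polymerase delta, was in none, and Pola2 in Tspan12 KO had the lowest value of this group, 0.26 (-0.28 to 0.79). Pold1 (0.75, 0.71 and 1.19), Pold2 (1.14, 1.02 and 0.98) and Pole2 (0.99, 0.96 and 1.30) lay around the threshold. In the last role, the ligase of Okazaki fragments, Lig1, was at 102 and 44.5, 109 and 33.6, and 143 and 43.0 CPM (1.20, 1.70 and 1.73), whereas the single-strand binding subunit Rpa3 was at 93.5 and 59.4, 48.5 and 29.9, and 39.1 and 22.1 (0.66, 0.70 and 0.82). The flap nuclease Fen1 (1.02, 1.64 and 1.45) and Rpa2 (0.99, 1.32 and 1.53) were nearer Lig1, and Rpa1 (0.70, 0.87 and 0.92) was nearer Rpa3.

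The same 15 members were past 2-fold in the ECs of all 3 libraries (Mcm5, Mcm7, Mcm10, Gins1, Gins2, Rfc5, Prim1, Pole, Lig1, Rrm1, Rrm2, Tyms, Tk1, Chaf1a and Clspn), and 9 were in none of them (Mcm6, Gins4, Rfc1, Rfc2, Rfc3, Pola2, Pold3, Rpa1 and Rpa3). In single libraries 2.25%, 2.94% and 3.64% of all genes were past 2-fold. The shares of all genes past it in all 3 or in none are not given here.

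Microglia-like cells showed wider ratios on fewer molecules. Of the members with at least 20 UMIs over both states, 31 of 34 were at least 2-fold higher in cycling cells in WT (8.40% of all tested genes), 32 of 39 in Tspan12 KO (6.21%) and 39 of 45 in Ctnnb1 cKO (5.57%). The WT library had 25 cycling microglia-like cells, Tspan12 KO 42 and Ctnnb1 cKO 319, and the median log2 ratios were 1.94, 1.94 and 1.72. With at least 50 UMIs required the counts were 14 in WT and 18 in Tspan12 KO, since fewer members could then be tested.

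Rrm2 again had a wide ratio, at 139 CPM in cycling and 6.10 in non-cycling WT microglia-like cells, 107 and 2.25 in Tspan12 KO, and 57.7 and 1.69 in Ctnnb1 cKO (log2 ratio 4.51, 5.57 and 5.10). Tyms was at 139 and 13.5, 102 and 10.4, and 93.2 and 13.1 CPM (3.36, 3.30 and 2.83), and Tk1 at 48.7 and 4.79, 85.4 and 1.80, and 58.3 and 6.75 (3.34, 5.56 and 3.11). Uhrf1 had ratios of 3.18, 3.19 and 3.19, and Rrm1 3.06, 3.0 and 2.79. The non-cycling levels of Rrm2 and Tk1 were thus lower than in ECs.

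Pcna was at 247 and 100 CPM in WT, 300 and 106 in Tspan12 KO, and 133 and 40.1 in Ctnnb1 cKO (1.30, 1.5 and 1.73), and Mcm7 at 93.7 and 18.3, 117 and 23.9, and 97.6 and 23.2 (2.36, 2.29 and 2.07). Rfc1 (1.12, 0.76 and 0.74), Rpa3 (0.72, 0.11 and 0.78) and Pold3 (0.55, 0.88 and 0.92) were at the low end, as in ECs. Past 2-fold in all 6 EC and microglia comparisons were 11 of the 33 members that could be tested in all 6 (Mcm5, Mcm7, Gins1, Gins2, Rfc5, Lig1, Rrm1, Rrm2, Tyms, Tk1 and Clspn), and only Pold3 and Rpa3 were in none. The shares of all genes past 2-fold in all 6 or in none are not given here.

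Cycling progenitor-like cells against non-cycling Müller-like cells compare different cell types as well as states. In WT 39 of 45 members were at least 2-fold higher (7.81% of all genes), in Tspan12 KO 42 of 44 (7.29%) and in Ctnnb1 cKO, with 45 cycling cells, 13 of the 15 that could be tested (8.32%). Rrm2 was at 211 and 7.26 CPM in WT and 220 and 3.72 in Tspan12 KO (log2 ratio 4.86 and 5.89), and Clspn at 146 and 7.26, and 114 and 2.48 (4.33 and 5.52). Gmnn was at 231 and 23.7, 241 and 17.0, and 197 and 20.3 CPM in the 3 libraries (3.28, 3.82 and 3.28), and Pcna at 287 and 78.1, 257 and 50.8, and 142 and 27.9 (1.88, 2.34 and 2.35). Mcm7, at 139 and 72.4 CPM in WT, was below 2-fold there (0.94), as were Rfc1 (0.66), Rfc2 (0.84), Gins4 (0.81), Mcm2 (0.79) and Orc1 (0.55). Rfc1 and Gins4 remained below 2-fold in Tspan12 KO, at 0.65 and 0.29.

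**Figure D2:**
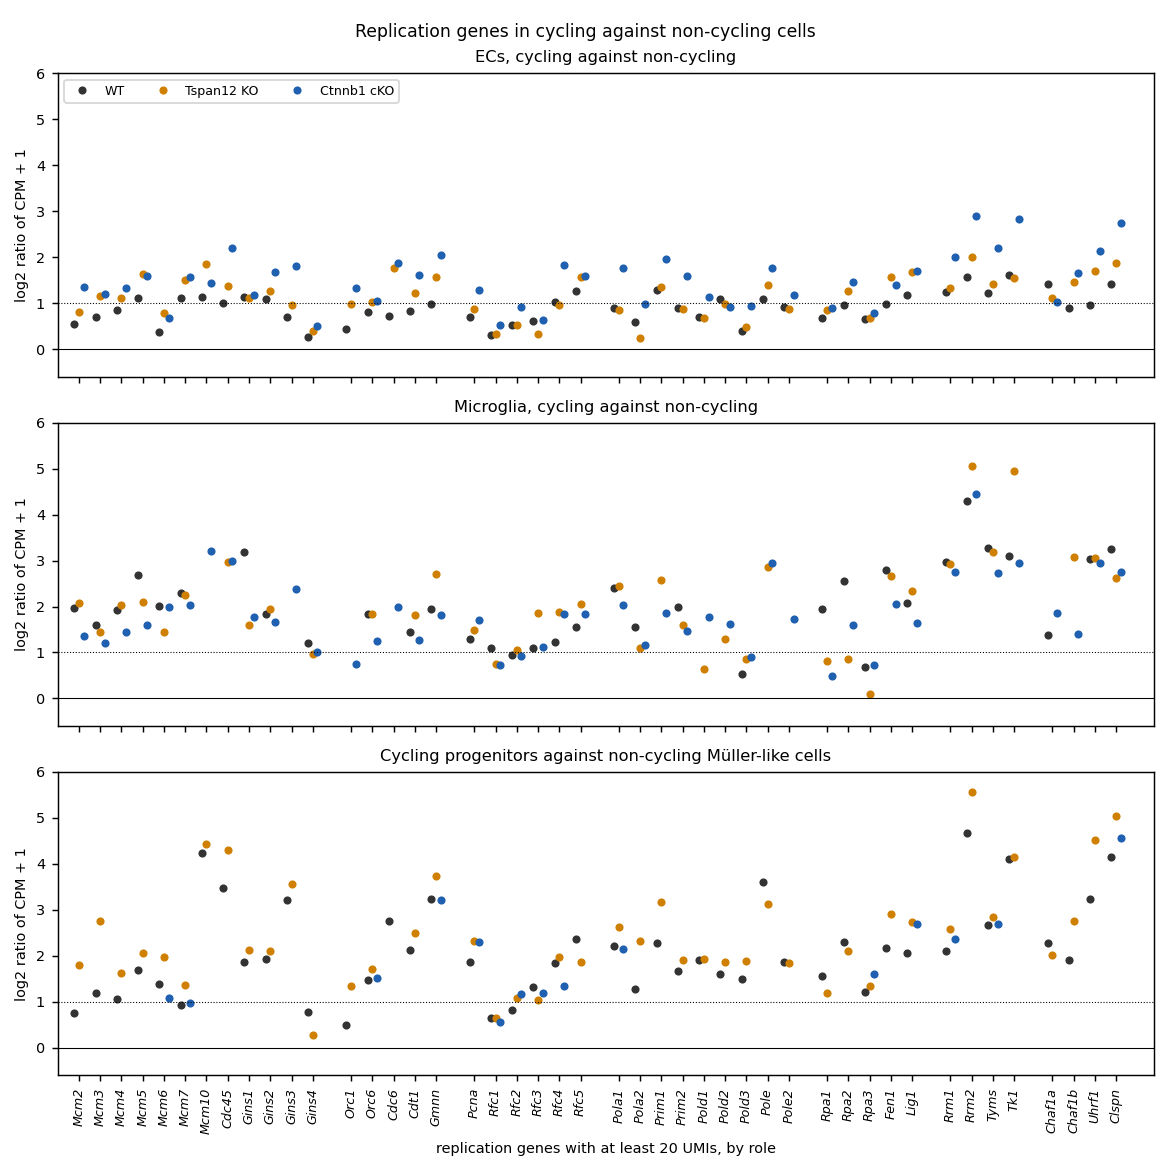
Log2 ratio of CPM + 1 of each replication gene with at least 20 UMIs (horizontal axis, grouped by role) in cycling against non-cycling cells, in panels for ECs, microglia-like cells and progenitor-like against Müller-like cells, with 1 colour per library. The dotted line marks 2-fold, and the deoxynucleotide and chromatin genes reach highest while Rfc1, Gins4 and Rpa3 stay low in ECs.

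Within cycling cells the set was divided between S-called and G2/M-called cells. The median S-called EC held 4 (WT), 7 (Tspan12 KO) and 6 (Ctnnb1 cKO) UMIs of the members per 2000, and the median G2/M-called EC 5, 4 and 4. In progenitor-like cells the S-called median was 15 and 14 in WT and Tspan12 KO, and the G2/M-called median 7 and 7. The S-called groups were small, 25, 18 and 74 ECs, 4, 8 and 56 microglia-like cells, and 20 and 6 progenitor-like cells of WT and Tspan12 KO.

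In progenitor-like cells 15 of 45 members were 2-fold higher in S-called cells in WT (7.27% of all genes) and 1 was 2-fold lower (11.0%), and in Tspan12 KO 21 of 43 were higher (9.50%) and 3 lower (19.6%). In Ctnnb1 cKO microglia-like cells 14 of 43 were higher (3.84%) and 0 lower, and the share of all genes 2-fold lower is not given here. In WT microglia-like cells (4 S-called) Mcm5, Mcm6, Orc6, Pola1 and Fen1 were 2-fold higher and Rrm2 and Tyms lower. In Tspan12 KO ones (8 S-called) Mcm2 to Mcm6, Orc6 and Fen1 were higher and Tk1 and Uhrf1 lower. The shares of all genes for these are not given here. In ECs the counts were small. In WT 0 members were higher (1.69%) and 1 lower (4.86%), in Tspan12 KO 3 of 44 were higher (1.62%) and 0 lower (5.06%), and in Ctnnb1 cKO 4 of 44 were higher (2.19%) and 1 lower (5.84%). The members' median log2 ratio in ECs was -0.26, 0.47 and 0.26, and it moved with the call, to 0.65, 0.27 and 0.78 under a stricter call and to 0.04, 0.10 and -0.22 with cells thinned to 4000 UMIs, so that no direction holds for the set as a whole in ECs. In progenitor-like cells the median was 0.65 in WT and 0.99 in Tspan12 KO, and -0.26 and 0.15 with cells thinned to 4000 UMIs.

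The loading factors stood on the S side in most comparisons. Cdt1 was at 107 CPM in S-called and 22.6 in G2/M-called WT progenitor-like cells (log2 ratio 2.24), at 97.4 and 29.2 in Ctnnb1 cKO microglia-like cells (1.74), and at 73.5 and 21.3 in Ctnnb1 cKO ECs (1.79; interval 1.13 to 2.43). In WT ECs it was at 16.1 and 17.7 CPM and in Tspan12 KO ECs at 43.2 and 22.1. Cdc6 was at 91.4 and 15.7 CPM in WT progenitor-like cells (2.54) and at 19.5 and 9.42, 36.4 and 15.6, and 37.8 and 12.2 in the ECs of the 3 libraries (1.05, 1.22 and 1.63). Over 8 such comparisons (ECs and microglia-like cells of 3 libraries, progenitor-like cells of WT and Tspan12 KO), Mcm6 was above 0 in 8. It was at 239 and 87.5 CPM in WT progenitor-like cells (1.45). Mcm3, Mcm5, Mcm7, Orc6, Pcna and Prim2 were above 0 in 7 of 8. Small values count, such as 0.011 for Mcm3 in WT microglia-like cells. At least 2-fold higher were Mcm6 in 5, Mcm5 in 3, Mcm3, Orc6 and Prim2 in 2 each, and Mcm7 and Pcna in 1 each. The shares of all genes above 0 as often are not given here.

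Some other members were below 0 in most comparisons, though few of these values were 2-fold lower. Rrm2 was at 152 CPM in S-called and 216 in G2/M-called WT progenitor-like cells (log2 ratio -0.50), at 62.0 and 99.0 in WT ECs (-0.67) and at 35.6 and 50.4 in Ctnnb1 cKO ECs (-0.50), but at 88.6 and 64.3 in Tspan12 KO ECs (0.46). Tk1 was at 81.2 and 102 CPM in WT progenitor-like cells (-0.33). It was below 0 in 6 of the 7 comparisons in which it could be tested, Rfc5 in 5 of 6 and Rrm2 in 6 of 8. At least 2-fold lower were Rrm2 in 2 of 8, Tk1 in 1 of 7 and Rfc5 in 2 of 6. In Tspan12 KO progenitor-like cells Rfc5 rested on 1 S-called UMI (-1.26; -6.59 to 1.30). The shares of all genes below 0 as often, and single members under other settings, are not given here. The median over the comparisons ran from 1.72 for Cdt1 and 1.55 for Cdc6 through 1.28 for Mcm6 and 1.24 for Mcm4 down to -0.20 for Gmnn, -0.30 for Rfc5, -0.58 for Rrm2 and -0.61 for Tk1. Rrm2 and Tk1, which had the widest ratios between cycling and non-cycling ECs in 2 of the 3 libraries, thus had the lowest medians of the set within the cycle.

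**Figure D3:**
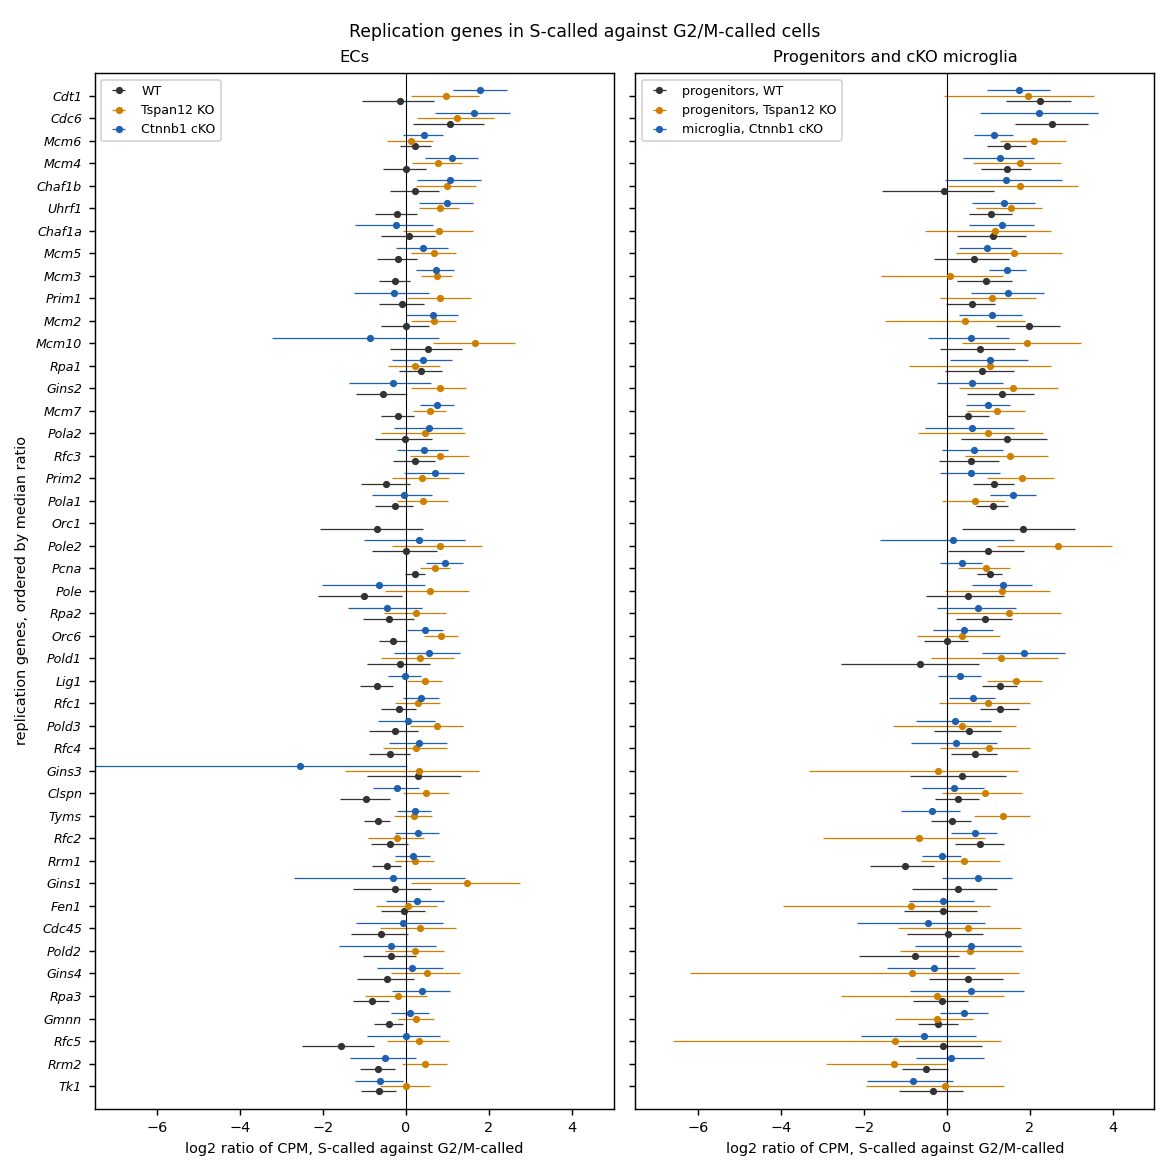
Log2 ratio of CPM in S-called against G2/M-called cells for each replication gene (rows, ordered by the median over the comparisons), in 1 panel for the ECs of the 3 libraries and 1 for WT and Tspan12 KO progenitor-like cells and Ctnnb1 cKO microglia-like cells; lines are 95% counting intervals, and that of Gins3 in Ctnnb1 cKO ECs runs past the axis. Cdt1, Cdc6 and Mcm6 lie to the right of 0 in most comparisons, and Rrm2 and Tk1, with medians of -0.58 and -0.61, to the left in most.

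Cycling ECs were then compared with cycling progenitor-like cells of the same library. In WT 10 of the 45 members were 2-fold lower in ECs (27.4% of all genes were), in Tspan12 KO 14 (26.9%), and in Ctnnb1 cKO 5 were lower (24.5%) and 6 higher (21.7%). The members' medians, -0.66, -0.65 and -0.09, depend on the scaling, being -0.17, -0.09 and 0.51 with TMM scaling. Across the 45 members the levels in the 2 classes had a Spearman's rho of 0.89, 0.82 and 0.70. Members at the low end were Gins3 (8.75 CPM in ECs and 32.1 in progenitor-like cells of WT, 9.56 and 43.5 in Tspan12 KO), Pola1 (64.9 and 180, and 53.9 and 204) and Mcm10 (12.7 and 40.1, and 15.7 and 33.8). Mcm3 was on the other side in all 3 libraries, at 93.5 and 65.3 CPM in WT, 125 and 88.9 in Tspan12 KO, with 76.6 and 21.9 in Ctnnb1 cKO, the last on 4 UMIs.

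Against the WT library, all ECs of the library labelled Tspan12 KO had 1 of 45 members at a log2 ratio of 0.5 or more (10.4% of all genes) and 7 at -0.5 or less (12.9%), with a median of -0.11. ECs of Ctnnb1 cKO had 0 (17.7%) and 24 (28.2%), with a median of -0.53 against -0.12 over all genes. In non-cycling Ctnnb1 cKO ECs 29 members were at -0.5 or less (30.3%) and 1, Chaf1a, at 0.5 or more (17.7%), with a median of -0.67, which was -0.15 with cells thinned to 4000 UMIs and -0.38 when cells with any calling UMI were left out. In cycling Ctnnb1 cKO ECs 9 were lower (27.3%) and 3 higher (16.2%), with a median of -0.09. In Tspan12 KO the counts were 9 lower (13.3%) and 1 higher (13.5%) in non-cycling ECs, with a median of -0.29 that was 0.039 with cells thinned to 1000 UMIs and 0.12 at 4000, and 5 lower (14.9%) and 5 higher (10.7%) in cycling ECs. Within the cluster that held most WT ECs (507 WT, 202 Tspan12 KO and 64 Ctnnb1 cKO cells) the members' median over all ECs was 0.10 (Tspan12 KO) and -0.055 (Ctnnb1 cKO). In that cluster the Ctnnb1 cKO median was -0.34 in cycling and -0.14 in non-cycling cells. Microglia marker RNA was also unequal, the 8 markers summing to 152 CPM in WT ECs, 110 in Tspan12 KO, with 692 in Ctnnb1 cKO, and the 8 rod markers to 117, 226 and 98.4 CPM. Their part in these ratios was not tested.

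Pcna had one of the larger shifts in Ctnnb1 cKO. Over all ECs it was at 123 CPM in WT, 103 in Tspan12 KO, with 41.7 in Ctnnb1 cKO (log2 ratio to WT -0.25 and -1.56, the latter with an interval of -1.70 to -1.42), and in cycling ECs at 160, 142 and 76.0 (-0.18 and -1.08). Within the cluster of most WT ECs it was at 125 CPM in WT and 52.3 in Ctnnb1 cKO, on 13 UMIs (-1.26; -2.17 to -0.48). In classes other than ECs of that library, whose microglia-like cells lay mostly in another cluster than those of WT, Pcna was also lower. It was at 247 CPM in WT and 133 in Ctnnb1 cKO cycling microglia-like cells (-0.89; -1.30 to -0.47), at 100 and 40.1 in non-cycling ones (-1.32) and at 287 and 142 in cycling progenitor-like cells (-1.02). In non-cycling rods Pcna was at 46.6, 41.8 and 46.9 CPM in the 3 libraries, the last on 8 UMIs.

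Rpa3 was lower in both knockout libraries. Over all ECs it was at 72.7 CPM in WT, 37.6 in Tspan12 KO, with 27.2 in Ctnnb1 cKO (-0.95 and -1.42), and in cycling ECs at 93.5, 48.5 and 39.1. It too was lower elsewhere, at 121 CPM in WT and 65.7 in Tspan12 KO cycling progenitor-like cells (-0.88), and at 20.5 and 10.7 in WT and Ctnnb1 cKO non-cycling microglia-like cells (-0.94). In non-cycling rods of the 3 libraries Rpa3 was at 53.1, 36.4 and 17.6 CPM, the last on 3 UMIs (interval 3.63 to 51.4). Rrm2 was at 55.4, 37.1 and 16.5 CPM over all ECs (-0.58 and -1.75) and at 93.8, 68.4 and 48.4 in cycling ECs (-0.46 and -0.96). In Ctnnb1 cKO it was at 57.7 CPM against 139 in cycling microglia-like cells (-1.26) and at 76.5 against 211 in cycling progenitor-like cells (-1.46).

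Few members went the other way. Mcm2, a helicase subunit, was at 27.7 CPM over all WT ECs, 44.8 in the library labelled Tspan12 KO and 23.8 in Ctnnb1 cKO (0.70, interval 0.48 to 0.91, and -0.22). It was also higher in Tspan12 KO progenitor-like cells, at 56.0 against 33.3 CPM (0.75), and in non-cycling microglia-like cells, at 15.3 against 7.85 (0.97). In cycling ECs the loading factors were higher in both knockout libraries, Cdt1 at 17.5, 25.6 and 28.5 CPM (0.55 and 0.70) and Cdc6 at 10.8, 19.1 and 15.8 (0.82 and 0.55), and Clspn was at 56.1, 63.8 and 81.2 (0.18 and 0.53). Orc1 and Gins1 were lower in both, Orc1 at 10.2, 3.99 and 2.79 CPM over all ECs (-1.36 and -1.87) and Gins1 at 10.5, 6.14 and 4.34 (-0.77 and -1.27), each on 26 to 169 UMIs. Rfc1, at 62.0, 60.3 and 77.4 CPM (-0.04 and 0.32), was close to level in Tspan12 KO and higher in Ctnnb1 cKO, though short of the fold. Lig1 was close to level in both, at 66.9, 63.7 and 69.4 CPM.

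In cycling microglia-like cells 5 of 35 members were higher (20.9%) and 7 lower (16.0%) in Tspan12 KO, and 7 of 43 higher (29.4%) and 12 lower (23.6%) in Ctnnb1 cKO, with medians of -0.03 and -0.10. Most Ctnnb1 cKO microglia-like cells lay in another cluster than those of WT, and the part of this separation in the ratios was not tested. In cycling progenitor-like cells 3 of 45 were higher (10.5%) and 4 lower (11.9%) in Tspan12 KO, with a median of -0.03, which was -0.70 with a marker gate in place of clusters and -0.19 with a mean over cells. In Ctnnb1 cKO 0 were higher (20.6%) and 26 lower (32.1%), with a median of -0.74, on 45 cells that were shallower and none of which was called S, against 20 S-called cells in WT.

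**Figure D4:**
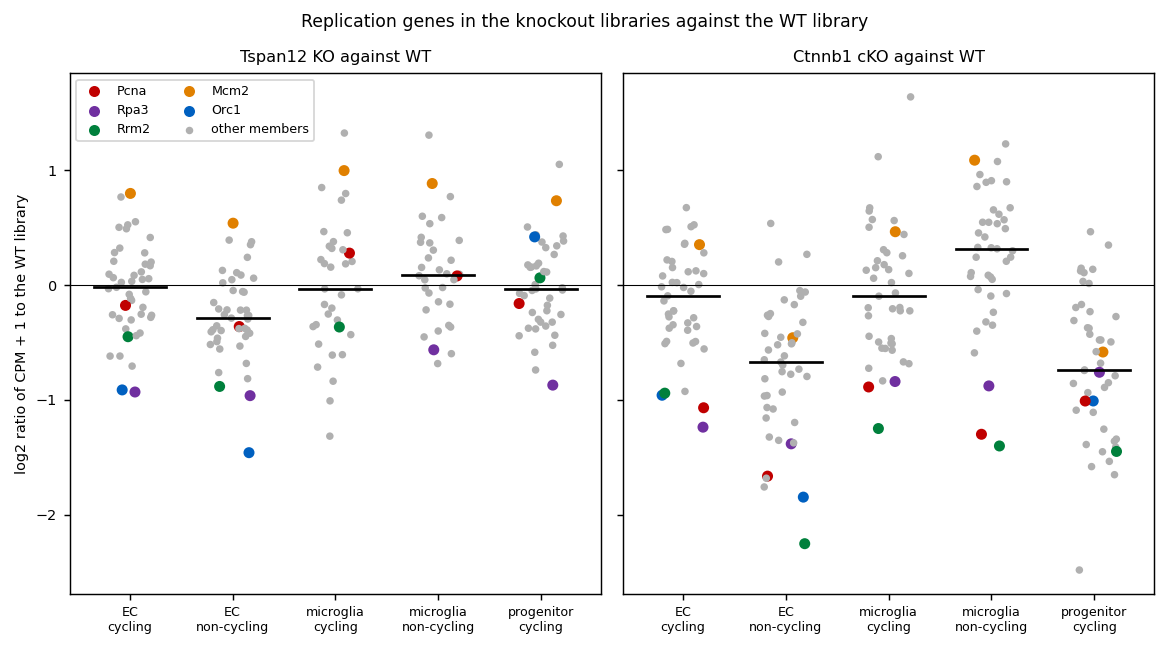
Log2 ratio of CPM + 1 to the WT library for each replication gene, in panels for Tspan12 KO and Ctnnb1 cKO, with 1 column of points per cell class and state, black bars at the medians and 5 named members in colour. In Ctnnb1 cKO the median of non-cycling ECs is -0.67 and that of cycling ECs -0.09, and Pcna, Rrm2 and Rpa3 lie below 0 in each class shown of that library.

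Other genes of replication, a list of 39, followed the members at a distance. Of those tested, 10 of 38, 11 of 38 and 20 of 39 were at least 2-fold higher in cycling ECs of WT, Tspan12 KO and Ctnnb1 cKO, 12 of 29, 18 of 33 and 18 of 37 in microglia-like cells, and 22 of 37, 22 of 37 and 10 of 21 in progenitor-like against Müller-like cells. The shares of all genes for these comparisons were 2.25%, 2.94% and 3.64% in ECs, 8.40%, 6.21% and 5.57% in microglia-like cells and 7.81%, 7.29% and 8.32% in the last. Dut, which removes dUTP, was at 212 and 115 CPM in cycling and non-cycling WT ECs and had ratios of 0.88, 1.09 and 1.46. Top1, which relaxes DNA ahead of the fork, had ratios of -0.02, 0.08 and 0.24. Of 24 genes of the E2F, RB and G1/S cyclin system, all of them tested in ECs, 1, 3 and 4 were at least 2-fold higher in the cycling ECs of the 3 libraries, against 2.25%, 2.94% and 3.64% of all genes. Ccnd1, the D-type cyclin of G1, had ratios of -0.05, 0.56 and 0.25, and Cdkn1a, the inhibitor p21, was at 116 CPM in cycling and 157 in non-cycling WT ECs (-0.43), and its ratio was 0.29 in Tspan12 KO but -0.71 in Ctnnb1 cKO.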

How the data were processed

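The authors enriched retinal vascular cells with CD31 and CD11b beads, prepared Chromium 3′ v3 libraries and deposited 1 matrix of UMI counts per library (raw counts per gene and cell barcode). The submitters' processing notes name GRCm39 and the matrix header Cell Ranger 8.0.1, whereas the study's methods name another build and version, and whether intron reads were counted is not given in the sources used here. No coordinate of the counting is used, and promoter coordinates are those of the RefSeq table (GRCm38.p6).

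Kept barcodes had 250 or more detected genes and 500 or more UMIs, of which mitochondrial genes gave no more than 15%. The top doublet scores were removed at an expected 0.8% per 1000 cells (760, 1656 and 665 cells in the WT, Tspan12 KO and Ctnnb1 cKO libraries), because the automatic threshold marked only 0, 1 and 343. The libraries shared 37 (WT and Tspan12 KO), 21 (WT and Ctnnb1 cKO) and 36 (Tspan12 KO and Ctnnb1 cKO) barcodes. Cells were clustered with Scanpy 1.11.5 and Leiden 0.10.2 (2000 variable genes, 30 components, 20 neighbours, resolution 1, 30 clusters), leaving out 255 genes, the 45 replication genes among them, and clusters were named from 8 markers per class. Counts were summed per class, state and library and divided by all UMIs of those cells. Ratios carry an exact binomial counting interval. A gene was tested with at least 20 UMIs over the 2 sums, and past the fold at a log2 ratio of 1 (state or class) or 0.5 (genotype) with 1 CPM added. UMIs of 3′ tags were not divided by gene length, and levels are compared between cells and not between genes. R 4.3.3 with edgeR 4.0.16 gave TMM factors as an alternative scaling only. The comparison was tested on simulated data.

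The members and lists were chosen with earlier results of these data known. Named with values were the 2 members of each role with the most UMIs in cycling cells and members among the 5 largest and 5 smallest ratios of a comparison. Others were named after their values were seen.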

Additional observations from a re-analysis of the deposited data

How the results depend on the processing

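No paired analysis was possible because each genotype has 1 library and the labels give no replicate numbers that groups share. For the same reason no replicate could be left out. Of the alternative values computed, 293 stayed within the limit set for a move, 87 moved, and 0 of the medians at or past the fold changed sign. Of 230 alternative medians, 31, belonging to 14 of the 21 reported medians, had the opposite sign, and each of those 14 was short of the fold. The cause of a move was not tested unless given. Values below follow the order WT, Tspan12 KO, Ctnnb1 cKO unless named.

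The count of members 2-fold higher in cycling ECs was 17 in WT and became 11 with a pseudocount of 5 CPM, 27 with a marker gate in place of clusters, 36 with non-cycling cells holding 0 calling UMIs, and 37 both with cells thinned to 4000 UMIs and with a mean over cells. For Tspan12 KO it was 26 and became 9 (thinned to 1000 UMIs), 16 (stricter call) and 13 (G2/M call alone). Requiring 50 UMIs left 14 and 18 members in WT and Tspan12 KO microglia-like cells and 0 in Ctnnb1 cKO progenitor-like cells, where fewer genes could be tested, against 34 with no filter and 1 when thinned to 4000 UMIs.

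The S against G2/M median in ECs was 0.55, 0.94 and 0.53 thinned to 1000 UMIs, 0.038, 0.10 and -0.22 thinned to 4000, and 0.65, 0.27 and 0.78 under the stricter call, and with a mean over cells -0.035 in WT and 0.72 in Tspan12 KO. In progenitor-like cells it was 1.34 in WT thinned to 1000, -0.26 and 0.15 in WT and Tspan12 KO thinned to 4000, and 0.39 in Tspan12 KO with the marker gate.

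The non-cycling EC median against WT was -0.29 in Tspan12 KO and became 0.039 (thinned to 1000), 0.12 (thinned to 4000), -0.14 (0 calling UMIs), 0.076 (mean over cells), -0.021 (stricter call), -0.075 (G2/M call alone) and -0.15 (no doublets removed). In Ctnnb1 cKO it was -0.67 and became -0.15 (thinned to 4000), -0.38 (0 calling UMIs) and -0.43 (mean over cells). In the cluster with most WT ECs, an alternative chosen after seeing the data, as were ECs of at least 2000 UMIs and the Müller-like reference, it was -0.14 in both, the all-EC medians were 0.10 and -0.055, and the cycling EC median was -0.34 in Ctnnb1 cKO. Against WT the cycling microglia median in Ctnnb1 cKO was -0.56 thinned to 1000, and the cycling progenitor median was -0.22 (thinned to 1000), -0.99 (thinned to 4000) and -0.42 (no doublets removed) in Ctnnb1 cKO, and -0.70 (marker gate) and -0.19 (mean over cells) in Tspan12 KO.

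The EC against progenitor median was -0.17, -0.092 and 0.51 with TMM scaling and -0.39, 0.17 and 0.36 with the marker gate. With TMM scaling the microglia against progenitor median was -0.15 and 0.59 in Tspan12 KO and Ctnnb1 cKO. It was -0.0053 and 0.46 in WT and Tspan12 KO with the marker gate, and -0.52 in Ctnnb1 cKO thinned to 1000. Its main values are not given above, so the size of these moves cannot be read here.

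Cycling shares moved with the call, and with the marker gate, which changes the class of a cell and not the call. In ECs they were 20.1%, 11.2% and 12.4% thinned to 1000, 45.1%, 43.5% and 36.9% thinned to 4000, and 21.2%, 13% and 14.7% under the stricter call. In microglia-like cells they were 6.27%, 8.72% and 10.6% thinned to 1000, 16.3% and 36.6% in WT and Ctnnb1 cKO thinned to 4000, 8.95% and 13.3% in Tspan12 KO and Ctnnb1 cKO under the stricter call, and 15.7% in Ctnnb1 cKO with the marker gate. In progenitor-like cells they were 89.4%, 76.5% and 87.2% thinned to 1000, 100% in Tspan12 KO and Ctnnb1 cKO thinned to 4000, 96.8% and 92.0% in WT and Tspan12 KO under the stricter call, and 16.8%, 14.8% and 18.1% with the marker gate. Depth limits the Ctnnb1 cKO progenitor-like comparison, where 15 of 45 members had at least 20 UMIs, and the microglia-like cells, where 11 members in WT and 6 in Tspan12 KO had fewer.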

Other observations

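Of the Müller-like cells 148 (WT), 76 (Tspan12 KO) and 9 (Ctnnb1 cKO) were called S. Their 45 members summed to 4393, 3643 and 2756 CPM, against 1015, 786 and 700 CPM in the non-cycling cells of the same class, and the median S-called cell held 8, 7 and 3 UMIs of the members per 2000, against 15 and 14 in S-called progenitor-like cells of WT and Tspan12 KO and 7, 7 and 5 in G2/M-called ones of the 3 libraries. The S-called Müller-like cells outnumbered the S-called progenitor-like cells (20 in WT and 6 in Tspan12 KO), a cluster led by cell-cycle genes.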
